A study of Ziziphus jujuba var. spinosa with 24 samples.

Results

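Leaves of an autotetraploid sour jujube were compared with leaves of the diploid it was derived from, over all treatments of the series together. Sour jujube (Ziziphus jujuba Mill. var. spinosa) is the wild relative of the cultivated jujube tree. All 24 libraries of the series took part, 12 from autotetraploid and 12 from diploid leaves, chosen by the ploidy in their labels. Each ploidy had 4 treatments with 3 libraries each: an untreated control and drought of 6, 12 and 48 h. All genes were members, and 25829 of the 32527 in the count table had enough counts to be tested. Both ploidies were labelled wild type and had been kept side by side in tissue culture for over 20 generations. Plants spent 30 days in culture and 45 days in rooting medium under 16 h of light and 8 h of darkness at 25 °C, and then 3 dark and 7 light days in Hoagland solution. Drought was set with PEG6000, a polyethylene glycol that binds water, raised in daily steps to 20%. How the hours of drought relate to those steps was not stated. The labels name 1 autotetraploid and 1 diploid and no second pair, so ploidy and the history of each line cannot be told apart.

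An autotetraploid arises when a plant's own chromosome set is multiplied, so that every gene gains copies of itself and no foreign genome is added. Such plants often have larger cells, stomata and leaves than their diploid parents. Because each gene and its regulators are multiplied together, the proportions among transcripts can stay near those of the diploid. Sequencing of equal masses of RNA measures such proportions. Here 1 µg of RNA entered each library, so a level is a share of the RNA and not an amount per cell, and fewer cells of a type and less RNA per cell cannot be told apart. The unit of level is CPM, in which counts are brought to a common library total with the factors of edgeR's TMM method. The fold change of a gene is the mean of its 4 autotetraploid group levels over the mean of its 4 diploid group levels on the log2 scale, so each treatment weighed the same. A gene was called where edgeR's quasi-likelihood test gave an adjusted p under 0.05 (Benjamini-Hochberg over all genes tested).

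Library totals ran from 31076033 to 40482306 counts in the autotetraploid and from 30750412 to 50404402 in the diploid. As leaf markers, the rubisco activase genes RCA1 and RCA2 averaged 2180 and 9239 CPM in the autotetraploid and 2348 and 9797 CPM in the diploid. The floral regulators LFY and AP1 had 104 and 2 counts over all libraries together and were not tested. Between libraries of 1 group, the median SD of log2 CPM was 0.187 in the autotetraploid and 0.180 in the diploid, over genes of at least 5 CPM.

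Several libraries stood apart. A search for genes with at least 5 counts in all 12 libraries of one ploidy and at most 2 counts in at least 9 libraries of the other found 4 genes counted in the autotetraploid. These were LOC107412124 and the gene models newGene_937, newGene_3619 and newGene_7879, transcripts without a name that the files list as Ziziphus_jujuba_newGene with a number. In all 4 the exceptions included the same libraries, the one labelled diploid 6 h replicate 1 and the one labelled diploid 12 h replicate 1. newGene_3619 had 17 to 50 counts in the 12 autotetraploid libraries, 30 and 25 counts in these diploid libraries, 3 counts in diploid 6 h replicate 2 and 0 in the other 9. newGene_7879 had 5 to 24 counts in the autotetraploid libraries, 37 and 21 counts in the same diploid libraries and 0 in the other 10. newGene_937 had 6 to 26 counts in the autotetraploid, 14 and 6 counts in these diploid libraries and 0 in the other 10. LOC107412124 had 6 to 39 counts in the autotetraploid libraries, 28 and 5 in these diploid libraries, and 2 and 1 in diploid control replicate 1 and diploid 48 h replicate 3. The same search in the other direction found newGene_685 alone, with 8 to 31 counts in all 12 diploid libraries. It had 5 counts in autotetraploid control replicate 3, 12 in autotetraploid 6 h replicate 3 and 0 in the other 10 autotetraploid libraries. Why these libraries carried such counts was not tested. The genes were picked for this pattern, so their values are a description, and results are given below with and without the diploid libraries concerned.

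**Figure D1:**
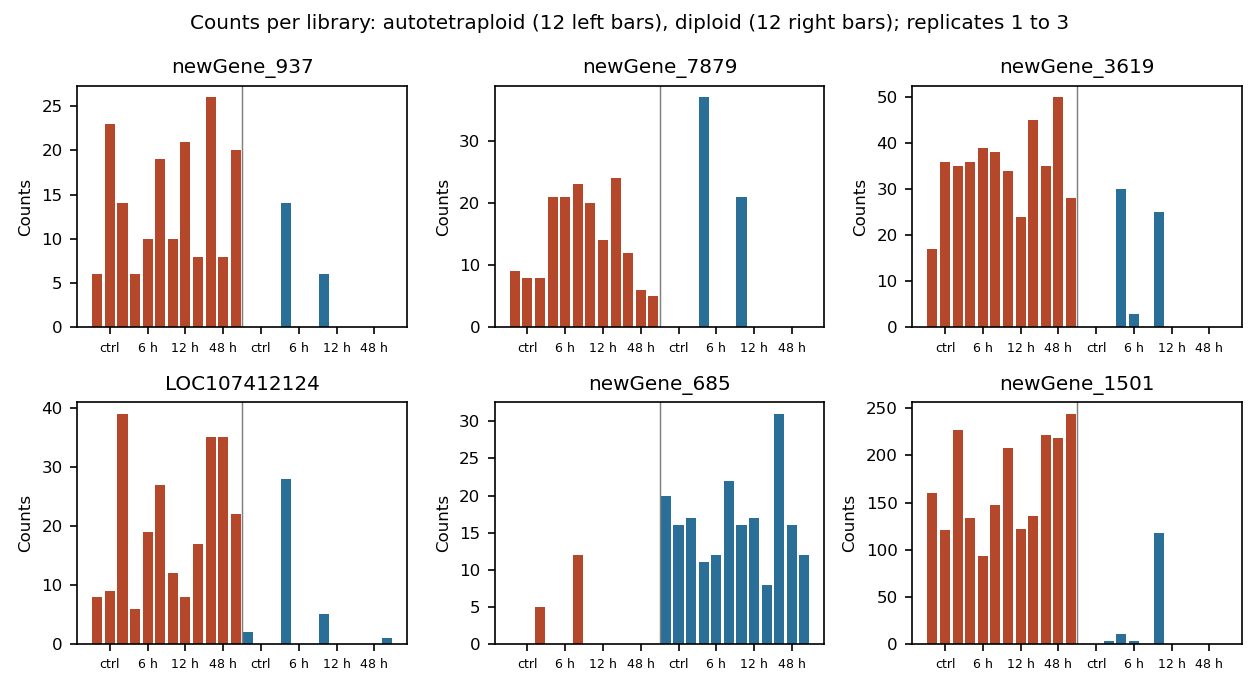
Counts (vertical axes) of 6 genes in each of the 24 libraries, with the 12 autotetraploid libraries (red) left of the 12 diploid ones (blue) and replicates 1 to 3 in order within each treatment. In 5 panels most diploid bars are at or near 0 and the bars of diploid 6 h replicate 1 and diploid 12 h replicate 1 are exceptions; in newGene_1501 these reach 10 and 118 counts. newGene_685 shows the reverse, with 5 and 12 counts in 2 autotetraploid libraries.

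Across the leaf transcriptome the ploidies lay close together. The median log2 fold change over all 25829 genes was −0.0064, the quartiles were −0.13 and 0.086, and the central 95% ran from −1.10 to 0.66. Over the 16383 genes with a mean of at least 5 CPM the central 95% ran from −0.43 to 0.34. For 15400 of these (94.0%) the 95% interval of the fold change lay inside 2-fold in either direction, and over all genes tested it did so for 20824 (80.6%). The median was also near 0 within each treatment, at −0.00083 in the controls, −0.011 at 6 h, 0.0028 at 12 h and −0.0031 at 48 h. TMM scaling places the bulk of genes near 0, so these medians follow from it and would hide a change common to most genes. The closeness of the ploidies therefore rests on the spread and the intervals.

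A total of 104 genes were called, 0.403% of those tested. Of these, 77 (0.298%) were lower in the autotetraploid and 27 (0.105%) were higher. An unadjusted p under 0.05 was reached by 3572 genes (13.8%). The lower genes had a median log2 fold change of −0.94 and 38 of them differed at least 2-fold, while the higher genes had a median of 0.41 and 7 differed at least 2-fold. In 18 called genes the libraries of 1 group or more had no count at all, so that their fitted fold changes rest on a prior count. With such differences held to the bound that 3 counts over the group allow, 37 lower and 7 higher genes differed at least 2-fold and both medians were unchanged to 2 decimals, at −0.94 and 0.41. The 18 genes lay beyond these medians with and without the bound, so the medians could not show its effect. Without both diploid libraries named above 156 genes were called, 105 lower and 51 higher, and 86 of the 104 were among them. Those libraries were singled out by counts like those of the autotetraploid at a few genes, so the larger number is no separate support. The count of 104 was sensitive to single libraries. It fell within 1.5 times of its value only when autotetraploid 48 h replicate 1 was left out (74), and ran from 20 without autotetraploid control replicate 2 to 255 without diploid control replicate 3.

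**Figure D2:**
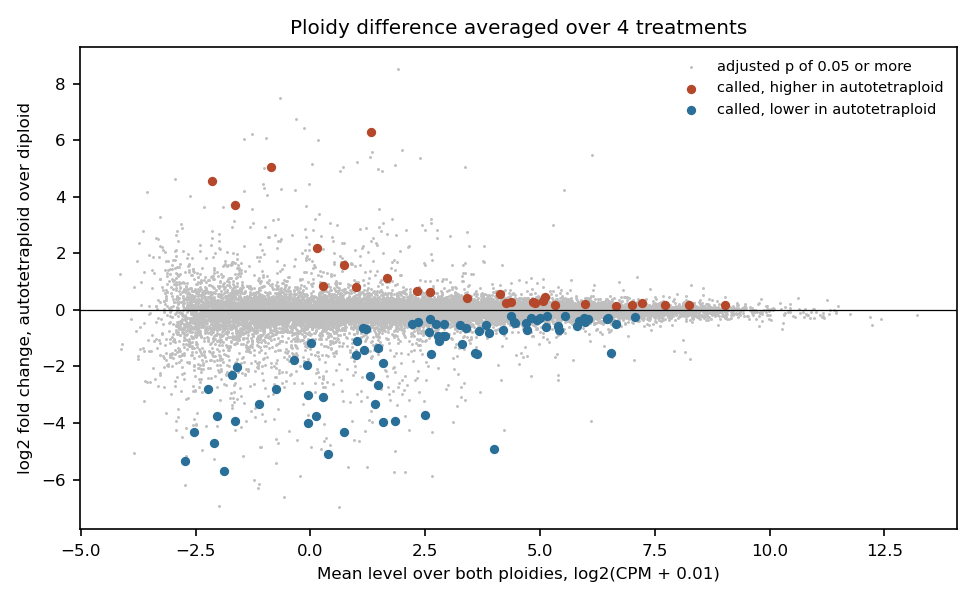
Log2 fold change of autotetraploid over diploid (vertical axis) against the mean level as log2(CPM + 0.01) (horizontal axis) for the 25829 genes tested, with the 27 genes called higher in red and the 77 called lower in blue. The cloud narrows with level around 0, and called genes appear at all levels, with 61 of the 104 at 5 CPM or more.

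Calls were spread over gene classes and levels. Of the 16383 genes of at least 5 CPM, 61 were called (0.372%), 44 lower and 17 higher, and below 5 CPM the share was 0.455%. By the RefSeq table of assembly ASM3175591v1, 57 of the lower genes and 20 of the higher genes are protein-coding. Another 11 lower and 6 higher genes are models without a name, and the remaining 9 and 1 have identifiers not found in that table. The share called was 0.449% among protein-coding genes, 0.616% among models without a name and 0.174% among the 5742 tested identifiers not found in that table. None of the 29 long non-coding RNA genes and none of the 138 pseudogenes tested was called. With 0.403% of all genes called, classes this small say little by a lack of calls. These shares were not tested against each other.

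The genes lower in the autotetraploid were led by newGene_1103, LOC107422767, LOC107419604, LOC107405836 and LOC107404936. These 5 had the smallest adjusted p of edgeR's quasi-likelihood test over all genes, and their calls held in each of 24 fits that left out 1 library. None of these identifiers is paired with a gene name or a function in the sources used here. newGene_1103 stood at 1.19, 0.821 and 2.12 CPM in the autotetraploid controls, against 5.64, 4.59 and 8.39 CPM in the diploid controls. At 6 h it had 0.804, 1.20 and 1.92 CPM in the autotetraploid and 2.92, 8.23 and 10.04 CPM in the diploid. At 12 h the values were 1.13, 1.10 and 0.781 CPM in the autotetraploid and 3.03, 1.71 and 2.52 CPM in the diploid, and at 48 h 0.979, 0.945 and 1.37 CPM in the autotetraploid and 3.49, 4.05 and 2.63 CPM in the diploid. The ploidies did not overlap in any treatment, and the highest autotetraploid library (2.12 CPM, a control) was above the lowest diploid one (1.71 CPM, at 12 h). The log2 fold change was −1.87 ± 0.22 (SE, adjusted p = 0.00127), and −1.92 (adjusted p = 0.000168) without both diploid libraries that stood apart.

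LOC107422767 differed little in the controls and strongly under drought. Autotetraploid controls had 20.0, 21.4 and 18.0 CPM, against 25.2, 17.1 and 27.8 CPM in the diploid controls, and these groups overlapped. At 6 h it had 10.8, 15.8 and 9.85 CPM in the autotetraploid and 37.0, 30.4 and 22.7 CPM in the diploid. At 12 h it stood at 0.515, 1.27 and 0.480 CPM in the autotetraploid and at 6.63, 5.94 and 4.05 CPM in the diploid, and at 48 h at 2.14, 1.59 and 1.22 CPM in the autotetraploid and 5.96, 8.43 and 3.32 CPM in the diploid. All 3 autotetraploid libraries lay below all 3 diploid libraries at each drought time. The averaged log2 fold change was −1.56 ± 0.18 (SE, adjusted p = 0.00127), and the difference reached −2.86 at 12 h. There the gene also passed in the fit of all 24 libraries (adjusted p = 0.0233), but not with only the 6 libraries at 12 h. The test of variation with treatment did not pass for it over all genes (adjusted p = 0.532).

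LOC107419604 averaged 19.8 CPM in the autotetraploid and 32.7 CPM in the diploid, and its log2 fold change was −0.72 ± 0.09 (SE, adjusted p = 0.00127). Its group means ran from 14.6 ± 1.81 CPM in the autotetraploid controls to 24.2 ± 1.32 CPM at 6 h, and from 26.4 ± 1.37 CPM in the diploid controls to 39.9 ± 4.77 CPM at 48 h (SD, n = 3). The ploidies overlapped only at 12 h. LOC107405836 followed the treatments closely in both ploidies and was lower in the autotetraploid at every one. In the controls it averaged 79.2 ± 12.7 CPM in the autotetraploid, against 126.6 ± 16.8 CPM in the diploid (SD, n = 3). At 12 h its level was 3.73 ± 0.218 CPM in the autotetraploid and 4.93 ± 0.443 CPM in the diploid, and at 48 h 88.9 ± 13.1 CPM and, in the diploid, 114.5 ± 11.0 CPM (SD, n = 3). No treatment showed overlap, and the log2 fold change was −0.57 ± 0.08 (SE, adjusted p = 0.00454).

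**Figure D3:**
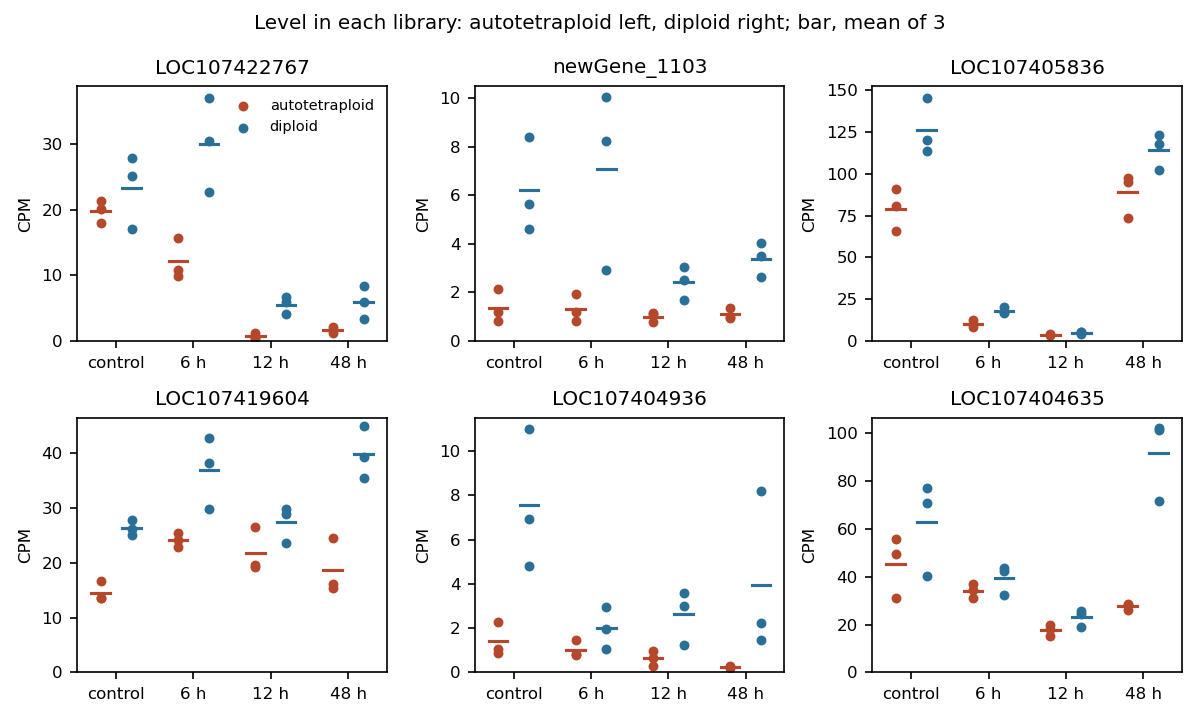
CPM (vertical axes) of 6 genes lower in the autotetraploid in each library, by treatment, with autotetraploid libraries (red) left of diploid ones (blue) and a bar at the mean of 3. newGene_1103 and LOC107405836 show no overlap between ploidies in any treatment, while LOC107422767 overlaps in the controls and LOC107404635 differs most at 48 h.

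No gene separated all 12 autotetraploid libraries from all 12 diploid ones. Within each treatment, 7 genes (0.0271% of those tested) kept the ploidies apart in the direction of the averaged difference, and 6 of them were called. These were newGene_1103, LOC107405836, LOC107406986, LOC107406328 and LOC107411118, all lower, and newGene_2130, which was higher. LOC107406328 and LOC107411118 fall outside the naming rule and were picked after their values were seen. LOC107406328 had 12.2 to 88.1 CPM in the autotetraploid with a median of 51.3 CPM, against 80.2 to 198.9 CPM in the diploid with a median of 138.6 CPM. Its log2 fold change was −1.52 ± 0.26 (SE, adjusted p = 0.0192). LOC107411118 had a smaller difference, with 4.35 to 8.96 CPM in the autotetraploid and 6.45 to 13.4 CPM in the diploid, and its log2 fold change was −0.51 ± 0.10 (SE, adjusted p = 0.0386).

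Of the 104 calls, 17 held in all 24 fits that left out 1 library, 16 of them lower and 1 higher. The lower ones included the 5 leading genes. Of these, LOC107404936 had 0.216 to 2.28 CPM in the autotetraploid and 1.08 to 11.0 CPM in the diploid. Its log2 fold change was −2.35 ± 0.32 (SE, adjusted p = 0.00454), and at 48 h all autotetraploid libraries were at or below 0.268 CPM while the diploid ones had 8.20, 1.48 and 2.23 CPM. LOC107404635 had 26.0, 28.7 and 28.1 CPM in the autotetraploid at 48 h, against 102.2, 71.8 and 100.9 CPM in the diploid, and overlapped between ploidies in the controls and at 6 and 12 h. Its averaged log2 fold change was −0.70 ± 0.11 (SE, adjusted p = 0.0145). newGene_5342 had 0 to 0.972 CPM in the autotetraploid, without a count in any library at 6 h, and 0.387 to 5.13 CPM in the diploid. The remaining ones, not covered by the naming rule, ranged in log2 fold change from −3.98 for newGene_3077 to −0.43 for LOC107418332. Among these, newGene_4166 averaged 6.29 CPM in the autotetraploid and 17.8 CPM in the diploid, and LOC107410511 averaged 3.23 CPM in the autotetraploid and 9.15 CPM in the diploid.

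The lower genes with the largest fold changes under the naming rule were at low levels and uneven within groups. Outside that rule, and picked after their values were seen, newGene_7380 had 0 to 6.18 CPM in the autotetraploid and 1.92 to 157.9 CPM in the diploid. Its log2 fold change was −4.90 ± 0.90 (SE, adjusted p = 0.0294), and the call held in 13 of 24 fits without 1 library. LOC107403385 and LOC107405727 had the largest fitted log2 fold changes of the 77, −5.69 and −5.34, but averaged 0.0129 and 0.0066 CPM in the autotetraploid and 0.512 and 0.273 CPM in the diploid. With groups of no count held to 3 counts, these averages were −4.18 and −3.04. LOC107430014 had 0.0601 to 1.64 CPM in the autotetraploid and 1.02 to 18.4 CPM in the diploid, and its log2 fold change was −3.33 ± 0.56 (SE, adjusted p = 0.0186). Its call ended without autotetraploid control replicate 2 or autotetraploid 6 h replicate 3. LOC107415535 had control values of 0.459, 0.821 and 2.15 CPM in the autotetraploid, against 7.77, 3.16 and 0.633 CPM in the diploid. At 48 h it had 0.0529, 0 and 0 CPM in the autotetraploid, against 30.9, 1.34 and 5.67 CPM in the diploid. The diploid libraries at 48 h thus spread widely. The log2 fold change was −3.92 ± 0.71 (SE, adjusted p = 0.0294), and the call ended in 8 of 24 fits without 1 library. LOC107411424, LOC107406075, newGene_7381 and LOC107416209 had log2 fold changes of −3.76, −3.72, −5.10 and −3.97. LOC107406075 reached 64.4 CPM in 1 diploid library at 48 h and had a diploid median of 2.35 CPM, beside a highest value of 2.16 CPM in the autotetraploid. newGene_7381 and LOC107416209 had no count in any autotetraploid library at 48 h, and with that difference held to the bound of 3 counts their averages were −4.36 and −3.20. These 4 calls ended in 13, 18, 18 and 17 of the 24 fits, and LOC107416209 did not pass without both diploid libraries that stood apart either (adjusted p = 0.0675).

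Of the 77 lower genes, 70 had a lower mean in the autotetraploid in all 4 treatments. Among all 25829 genes tested, 5212 had a mean difference of the same sign in all 4. Within single treatments 0 of the 77 passed in the controls, 0 at 6 h, 1 at 12 h and 15 at 48 h. Their median log2 fold change was −0.86 in the controls, −0.63 at 6 h, −0.75 at 12 h and −1.32 at 48 h. The largest difference was at 48 h for 37 of the 77, in the controls for 11, at 6 h for 14 and at 12 h for 15. These values describe genes chosen on the average of the same 4 differences and carry no test. At 48 h 12 of the 77 had no count in any of the 3 autotetraploid libraries, and none lacked counts in all 3 diploid libraries. Libraries differed in how many of the 77 stood under 0.1 CPM. There were 20, 21 and 23 such genes in the autotetraploid 48 h libraries, 18 in autotetraploid 12 h replicate 3, 5 to 12 in the other autotetraploid libraries and 0 to 5 in the diploid ones. The 77 were chosen as lower in the autotetraploid, so the side on which counts are missing follows in part from that choice. Shares over all genes tested were not counted. Of the 25829 genes tested, 172 were called at least 8-fold lower in autotetraploid 48 h than in autotetraploid control leaves, and 10 of these were among the 77. Both lists use the autotetraploid 48 h libraries, so overlap follows in part from that and carries no test.

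**Figure D4:**
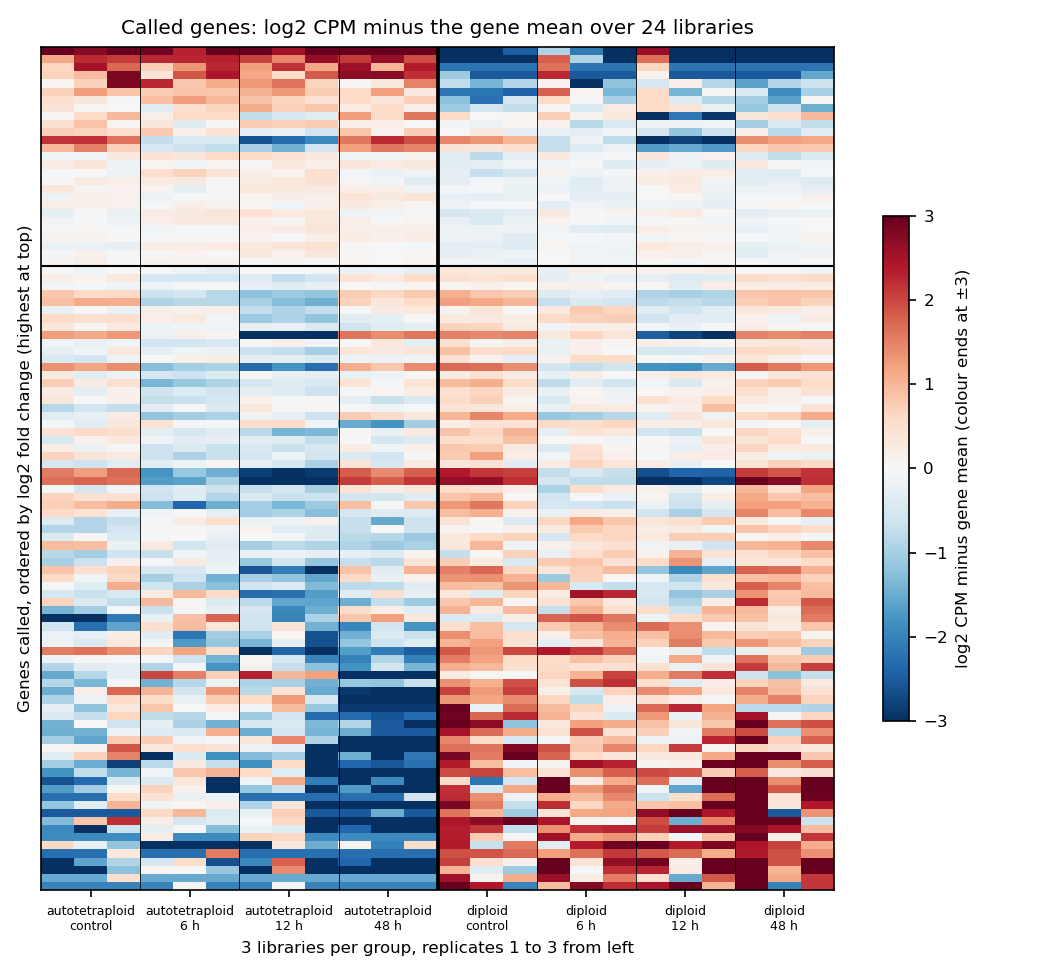
Heat map of the 104 called genes (rows, highest log2 fold change at the top; the horizontal line parts the 27 higher from the 77 lower) in the 24 libraries (columns, autotetraploid left of the thick line, diploid right). Colour is log2 CPM minus the gene's mean, with ends at ±3. Some of the lowest rows, such as LOC107416209 and LOC107421613, are deepest blue in the 3 autotetraploid 48 h libraries and autotetraploid 12 h replicate 3. Others differ, with newGene_5342 deepest in the autotetraploid at 6 h and LOC107403385 at its lowest value in most autotetraploid libraries. Several of the top rows are red in diploid 6 h replicate 1 or 12 h replicate 1.

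The genes higher in the autotetraploid differed less. Of the 27, 25 had a higher mean in the autotetraploid in all 4 treatments. The median log2 fold change of the 27 was 0.42 in the controls, 0.25 at 6 h, 0.39 at 12 h and 0.47 at 48 h. The 27 too were chosen on the average of these 4 differences, so these values carry no test. newGene_1501 had the largest difference and the one call of the 27 that held in all 24 fits without 1 library. It had 2.53 to 7.27 CPM in the 12 autotetraploid libraries. In the diploid it stood at 3.17 CPM in the library labelled diploid 12 h replicate 1, at 0.246 CPM in diploid 6 h replicate 1 and at 0 to 0.0921 CPM in the other 10. The log2 fold change was 6.31 ± 0.89 (SE, adjusted p = 0.00833), or 5.58 with the diploid 48 h group, which had no count, held to 3 counts. Without these diploid libraries it was 8.73 (adjusted p = 3.24e-05). Those libraries were singled out by counts of the same pattern at other genes, so this change is no separate support. Over the 39 alternatives the log2 fold change ran from 4.77 to 9.85, so its size is poorly fixed. The call ended in the fits without the controls, without 6 h and without 48 h.

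The other named genes of this direction had smaller differences. newGene_2130 had 0.715 to 4.99 CPM in the autotetraploid and 0 to 0.798 CPM in the diploid, apart in every treatment, and its log2 fold change was 2.17 ± 0.44 (SE, adjusted p = 0.0391). newGene_7718 had 1.46 to 3.01 CPM in the autotetraploid and, in the diploid, 0.203 to 1.82 CPM with 4.18 CPM in diploid 6 h replicate 1. The 1.82 CPM belonged to diploid 12 h replicate 1, and the other 10 diploid libraries averaged 0.593 CPM. Its log2 fold change was 1.59 ± 0.30 (SE, adjusted p = 0.0324), and 2.01 (adjusted p = 0.00121) without both diploid libraries. Those libraries were singled out by the same pattern at other genes, so here too this change is no separate support. LOC107429500 averaged 6.08 CPM in the autotetraploid and 3.83 CPM in the diploid, and its log2 fold change was 0.66 ± 0.12 (SE, adjusted p = 0.0259). newGene_347, LOC107433120, LOC107433003, LOC107415078, LOC107421225, LOC107417808 and LOC107423168 had log2 fold changes between 0.23 and 1.14 (adjusted p = 0.0294 to 0.0438, edgeR's quasi-likelihood test). LOC107423168 shows how small a called difference could be, with 17.5 to 23.1 CPM in the autotetraploid and 15.2 to 19.9 CPM in the diploid. LOC107433003 differed most at 12 h, with 0.927, 1.10 and 1.23 CPM in the autotetraploid and 0.134, 0.332 and 0.187 CPM in the diploid. The call of LOC107429500 ended in 6 of the 24 fits without 1 library, and those of the other 9 genes of this group in 7 to 18. LOC107417808 also did not pass without both diploid libraries (adjusted p = 0.0564).

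None of the 18 tested genes with an established name was called (smallest adjusted p = 0.143, edgeR's quasi-likelihood test), and DESeq2 and limma-voom called none of them either. Their median log2 fold change was −0.083, 12 lay below 0 and 6 above, and all 18 had a 95% interval inside 2-fold. An unadjusted p under 0.05 was reached by 5, all with values below 0. Among the housekeeping genes, GAPDH, the glycolytic glyceraldehyde-3-phosphate dehydrogenase, averaged 1779 CPM in the autotetraploid and 1737 CPM in the diploid. Its log2 fold change was 0.03, with an interval from −0.05 to 0.11. The elongation factor genes EF1-alpha and EF1-gamma, the alpha-tubulin gene TUA and the actin gene ACT1 had log2 fold changes of 0.01, 0.05, −0.01 and −0.04, with intervals between −0.23 and 0.16.

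In photosynthesis, RCA1 and RCA2, which keep the carbon-fixing enzyme rubisco active, had log2 fold changes of −0.26 ± 0.10 and −0.20 ± 0.10 (SE, adjusted p = 0.261 and 0.402). RCA1 averaged 1312 ± 251 CPM in the autotetraploid and 1965 ± 590 CPM in the diploid at 6 h, and 4547 ± 450 CPM in the autotetraploid and 4115 ± 419 CPM in the diploid at 48 h (SD, n = 3). Its differences between ploidies at these times were −0.58 and 0.14 on the log2 scale, and the test of variation with treatment gave an adjusted p of 0.923. Among the wall-loosening expansins, EXPA4, EXPA5 and the expansin-like EXPL1 had log2 fold changes of −0.35 ± 0.14, −0.37 ± 0.17 and −0.18 ± 0.12 (SE, adjusted p = 0.259 to 0.542). EXPA5 stood at 82.1 ± 15.2 CPM in the autotetraploid and 129.5 ± 37.6 CPM in the diploid at 6 h, and at 204.0 ± 81.0 CPM in the autotetraploid and 192.0 ± 33.2 CPM in the diploid at 48 h (SD, n = 3).

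For redox and water transport, catalase, which removes hydrogen peroxide, differed by −0.13 ± 0.06 on the log2 scale (SE, adjusted p = 0.384). GMP, GDP-mannose pyrophosphorylase of ascorbate synthesis, had −0.27 ± 0.09 (SE, adjusted p = 0.194). GSTU1, a glutathione transferase of the tau class, had 0.30 ± 0.15 (SE, adjusted p = 0.399). At 6 h it stood at 760 ± 85.7 CPM in the autotetraploid and 441 ± 73.0 CPM in the diploid (SD, n = 3), and this difference did not pass either. The polyphenol oxidase gene PPO had 0.24 and the aquaporin ZjPIP2, a water channel, had 0.13 with the widest interval, from −0.61 to 0.88. ZjPIP2 varied more within groups than between ploidies, with control values of 110 to 709 CPM in the autotetraploid, against 181 to 236 CPM in the diploid. Zj2-CP, Glu-1 and Glu2 had log2 fold changes of −0.26, −0.01 and −0.33.

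**Figure D5:**
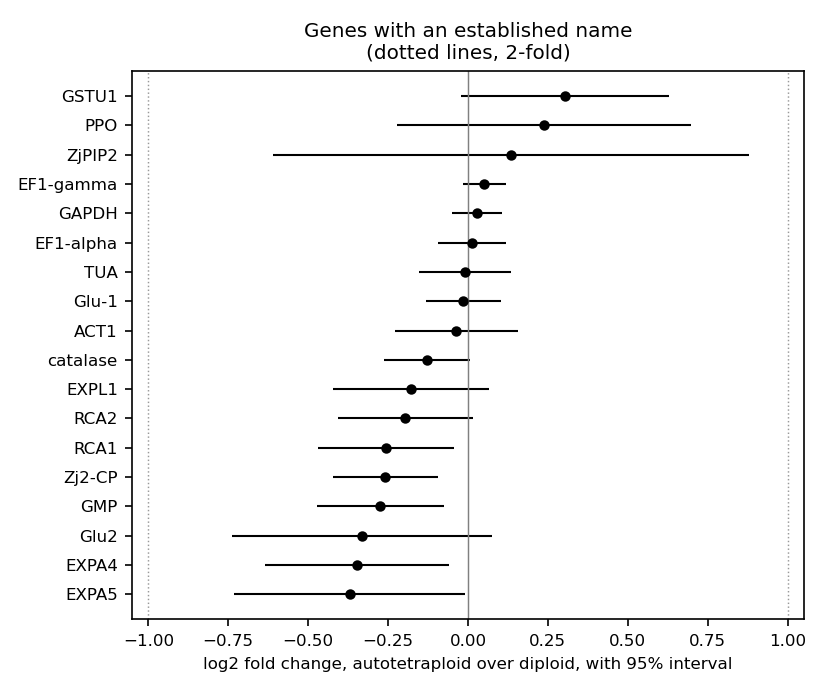
Log2 fold change of autotetraploid over diploid averaged over 4 treatments (horizontal axis, points) with its 95% interval (lines) for the 18 tested genes with an established name. All intervals lie inside the dotted lines at 2-fold, and that of ZjPIP2 is the widest.

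Treatment by treatment, far fewer genes passed. In the controls and at 6 h edgeR's quasi-likelihood test called none (0%), with 2230 and 1919 genes at an unadjusted p under 0.05. DESeq2 called 175 and 115 genes there and limma-voom 0 in both. At 12 h 5 genes passed (0.0194%), 4 lower and 1 higher, and 2 of them were among the 104. At 48 h 36 passed (0.139%), 34 lower and 2 higher, and 15 were among the 104, all lower. These comparisons use the libraries of the averaged one. Without both diploid libraries the counts were 2 in the controls, 2 at 6 h, 9 at 12 h and 18 at 48 h.

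Whether the ploidy difference varied between treatments was tested with 3 degrees of freedom. edgeR's quasi-likelihood test called 0 of 25829 genes on all 24 libraries (smallest adjusted p = 0.197), with 1436 at an unadjusted p under 0.05, and DESeq2 called 165 and limma-voom 0. The 5 genes of at least 1 CPM nearest to the threshold (adjusted p = 0.285 to 0.298, edgeR's quasi-likelihood test) are described by their values. LOC107429331 had 0.106, 0.216 and 0.0893 CPM in the autotetraploid at 48 h, against 17.2, 41.5 and 5.06 CPM in the diploid, and 48.4, 10.01 and 33.7 CPM in the autotetraploid at 6 h, against 12.5, 13.9 and 14.3 CPM in the diploid. LOC107429308 averaged 15.4 ± 1.52 CPM in the autotetraploid and 25.8 ± 2.65 CPM in the diploid at 6 h, and 183 ± 14.6 CPM in the autotetraploid and 156 ± 15.1 CPM in the diploid at 48 h (SD, n = 3). LOC107424379, LOC107420755 and newGene_401 were the others. Without both diploid libraries LOC107406144 and LOC107407396 passed (adjusted p = 0.000845 and 0.000169). LOC107406144 stood at 7.49 CPM in the left-out diploid 6 h replicate 1 and at 17.0 CPM in the left-out diploid 12 h replicate 1. It averaged 3.42 CPM in the other 10 diploid libraries and 6.48 CPM in the autotetraploid. LOC107407396 stood at 15.4 and 18.7 CPM in these left-out libraries of 6 and 12 h. It averaged 13.2 CPM in the other 10 diploid libraries and 13.6 CPM in the autotetraploid. Both fits rest on the 2 remaining diploid libraries at those times.

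Along the chromosomes, called genes did not form long runs. In the gene order of RefSeq assembly ASM3175591v1, 17327 tested genes and 77 of the called ones had a place. The longest run of neighbouring called genes of one direction was 2, and it occurred at 2 places, with LOC107406986 beside LOC107407046 and LOC107404631 beside LOC107404635. Of the 77, 6 had another called gene of the same direction among the 5 genes on either side. With 77 called genes among 17327, long runs would be rare in any order. Neither the runs nor the 6 neighbours were set against genes picked at random, so clustering was not tested. LOC107406986 had 0 to 1.41 CPM in the autotetraploid and 0.590 to 4.77 CPM in the diploid, and its log2 fold change was −3.08 ± 0.53 (SE, adjusted p = 0.0225). Its neighbour LOC107407046 differed by only −0.27 ± 0.06 (SE, adjusted p = 0.0449), with 9.61 to 57.1 CPM in the autotetraploid and 14.9 to 62.4 CPM in the diploid, and its call ended in 19 of 24 fits without 1 library. LOC107404631 had 0 to 1.36 CPM in the autotetraploid and 0.565 to 12.8 CPM in the diploid, and its log2 fold change was −2.67 ± 0.47 (SE, adjusted p = 0.0229). The calls of LOC107406986 and LOC107404631 each ended in 2 of those fits.

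The median log2 fold change of each of the 12 chromosomes lay between −0.020 and 0.0062. In 579 windows of 100 neighbouring genes of at least 1 CPM the medians lay between −0.052 and 0.064.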

How the data were processed

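Gene counts from sequenced leaf RNA were deposited by the authors as whole numbers per gene and library, not normalized, per the file headers. FPKM values, which divide fragments by transcript length and library depth, were deposited in 1 table per group, per the file headers. They list genes that reach 0.1 in a library of the group. They were used for no test. HISAT2 and StringTie are named in the submitters' processing notes. Versions, genome build, annotation and use of strand are not given in the sources used here, so genes sharing reads with a copy, a neighbour or an antisense gene are uncertain.

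Counts were tested in R 4.3.3 with edgeR 4.0.16 (filterByExpr by group, TMM scaling, 1 mean per group, robust dispersions, 16 residual degrees of freedom). Contrasts of group means went through the quasi-likelihood test, and p-values were adjusted over 25829 genes (Benjamini-Hochberg). SE is the absolute fold change over the square root of F. Alternatives used other scalings, filters and models, limma 3.58.1, DESeq2 1.42.0 and fits without single libraries. The scripts were tested on simulated data. No label says that the libraries of a group are from separate plants, and the spread behind the p-values may be technical. Pairs of libraries of 1 group differed beyond sampling noise.

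Per direction, the naming rule took called genes of at least 1 CPM with the same sign in all 4 treatments and no group whose highest library reached 5 CPM and 50 times its lowest. Of these it took the 10 with the largest fold change and the 5 with the smallest p. It also took 5 genes by the test of variation with treatment, the longest runs of neighbours and all genes with an established name. Such names came from RefSeq synonyms (assembly ASM3175591v1), which held 19767 of 29293 LOC identifiers; 20 had a name. Lists by product description were not evaluated, and no sequence is shown. The comparison, lists and rules were chosen with earlier results of these data known. The omission of both diploid libraries that stood apart, non-robust dispersions, the search that found those libraries and the bound of 3 counts were added after the data were seen.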

Additional observations from a re-analysis of the deposited data

How the results depend on the processing

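All 104 calls of the averaged comparison kept their sign under 39 alternatives. Both newGene_1103 and LOC107422767 passed under each, and 13 passed under all but those omitting a treatment. The number of calls depended on the fit. It was 94, 143 and 118 under other scalings (RLE, library totals, upper quartile), 84 with a filter of 1 CPM, 83 with none and 104 with non-robust dispersions. An additive model gave 69, with 59 of the 104 among them. The number was 55 (22 higher) in limma-voom, with 42 of the 104, and 882 (323 higher) in DESeq2, with all 104. Without the controls, 6, 12 or 48 h it was 5, 26, 22 and 4. Leaving out 1 library gave 20 to 255 calls on average over treatments, 0 to 63 in the controls, 0 to 3 at 6 h, 1 to 25 at 12 h, 5 to 78 at 48 h and 0 to 5 for variation with treatment. With only the 6 libraries compared, 9, 5, 2 and 8 genes passed in the controls and at 6, 12 and 48 h. These were largely other genes. Of the 2 at 12 h, 0 were among the 5 called there with all libraries, and of the 8 at 48 h, 1 was among the 36. At 12 h (5 calls), each other scaling gave 3, no filter 2, limma-voom 0 and DESeq2 140. At 48 h (36 calls), limma-voom gave 3 and DESeq2 434. In the controls, at 6 h and for variation with treatment, DESeq2 gave 175, 115 and 165. Without both diploid libraries that stood apart, the controls and 6 h gave 2 each, 12 h 9, 48 h 18 and variation with treatment 2. The cause of these changes was not tested. With the replicate number as a block, 45 genes passed on average, 43 of them among the 104, 2 at 12 h and 10 at 48 h. Same-numbered libraries of both ploidies within a treatment had correlations of deviations between −0.081 and 0.014, so no shared deviation over all genes was seen. These values do not show whether a shared number marks a pairing that touches few genes or runs across treatments. Genes of a few counts are limited by depth.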
